A study of Equus caballus with 13 samples.

Results

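The genes described here encode the proteins of the mitochondrial ribosome whose symbols start with MRPL or MRPS followed by a number. The rule used the symbol alone. It found 64 genes in each of 2 deposited tables of RNA kinetics, and they were the same 64. The tables listed 11056 genes for old against young female cells (the age table) and 11249 for young male against young female cells (the sex table). By the assembly of their products, 41 of the 64 belong to the large subunit and 23 to the small one. MRPS30 and MRPS18A count with the large subunit in spite of their names. Of 75 protein-coding horse genes with such a symbol in the RefSeq annotation (assembly TB-T2T), 63 matched a member. The other 12 were not analysed here. MRPL21 was a member without a match in that annotation.

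Mitochondrial ribosomes are built inside the organelle from RNA of the mitochondrial genome and from proteins that are all encoded in the nucleus. They translate the few proteins of the respiratory chain that the mitochondrial genome encodes, so products of both genomes meet in a single particle. A core of the proteins has relatives in bacterial ribosomes, while many others have none. Cartilage has no blood vessels, and its cells, chondrocytes, draw much of their energy from glycolysis.

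The cells were horse (Equus caballus) chondrocytes, wild type by label, taken from cartilage and cultured for 2 days. Cells of all groups received 4-thiouridine for 4 h, a nucleoside that marks RNA made in that time, and the RNA was then alkylated. There were 5 old female, 5 young female and 3 young male samples. The labels gave neither ages in years nor the joint, and did not say whether samples came from separate animals. Each table gave a synthesis rate and a half-life per gene and group as the authors' single estimate. Read depth is unknown, no value below has an error over samples, and no difference could be tested against the spread between samples. The 12 batch labels on 13 samples left group and batch impossible to separate, since only batch 10 held 2 groups. Half-lives were read as hours. Synthesis rates are in arbitrary units, and correction for transcript length is not stated. They are therefore compared within a gene, except in the sums over marker genes and in a filter by synthesis rate below. The product of synthesis rate and half-life divided by ln 2 is called the implied level here. In bulk cultures, fewer cells of a type and less RNA per cell cannot be told apart.

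Markers of chondrocytes were listed for 10 of 10 genes in both tables. Fibroblast or dedifferentiation markers were listed for 5 of 5. VWF was the 1 endothelial marker listed of 4, and CD14 the 1 macrophage or leukocyte marker of 5. Muscle markers were listed for 1 of 3 in the age table and 3 of 3 in the sex table. A proliferation marker, TOP2A, was listed in the sex table only, 1 of 3. No listed marker was at 0, but each gene is listed with an estimated rate and half-life, so this does not show which cell types were present. The summed implied level of the fibroblast markers was 150979 in young females and 378208 in young males of the sex table, 2.51-fold higher, and 158152 in young female and 78334 in old female cells of the age table, a fold of 0.495. Among them COL1A1 had log2 implied level ratios of 4.19 in male and −2.86 in old cells. The chondrocyte markers had folds of summed level of 2.51 in male and 0.912 in old cells. Their median log2 ratios of implied level were 1.54 in male cells, with 9 of 10 higher, and −0.31 in old cells, with 6 of 10 lower. In old cells these genes spread from −1.01 for HAPLN1, a link protein of the cartilage matrix, to 0.83 for COMP, a cartilage matrix protein. The muscle markers had a summed fold of 1.81 in male cells that came from ACTA2 (log2 ratio 4.82), while DES (−0.41) and MYH11 (−0.77) were lower. DES, the muscle marker listed in the age table, had a fold of 0.917 in old cells. VWF had folds of 1.03 and 1.20, CD14 of 1.11 and 1.20, and TOP2A one of 5.07 in male cells. The part of these differences in the results on mitoribosomal genes was not tested.

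Mitoribosomal transcripts decayed at a rate near the middle of all transcripts. In young female cells of the age table their half-lives had a median of 3.69 h, with quartiles at 2.48 and 5.75 h, beside a median of 3.64 h and quartiles at 1.78 and 8.67 h for all genes. In old female cells it was 3.54 h, beside 3.43 h for all genes. The sex table gave young male cells 4.76 h, beside 4.63 h for all genes, and young female cells 3.75 h, beside 3.74 h. Between 50 and 52 of the 64 members lay within the interquartile range of all genes in each of these groups. The lowest member value in any group was 1.11 h and the highest 37.6 h. The range that 4 h of labelling was taken to resolve, 1 to 24 h, held both group values of 62 of the 64 members, in either table; MRPL11 and MRPS15 were the exceptions.

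The members themselves covered a 20.3-fold range in young female cells of the age table. MRPL11 and MRPS15 were the most stable, with half-lives of 26.6 h each. MRPL11 belongs to the base of the ribosomal stalk, and its half-life was 24.1 h in old female and 23.2 h in young male cells. MRPS15, a relative of a bacterial protein that binds ribosomal RNA directly, was listed at 30.7 h and 37.6 h. These 2 transcripts had the longest half-lives of the 64 members in every group. The next were MRPS11 (13.4 h), MRPL13 (13.3 h) and MRPL52 (10.7 h). At the other end, MRPL44, a protein with a ribonuclease III-like fold, was listed at 1.31 h in both female groups and at 1.35 h in males. MRPS35 (1.41 h), MRPL46 of the central protuberance (1.49 h), MRPL50 (1.65 h) and MRPS18B (1.68 h) followed. In young female cells of the age table, the 5 shortest-lived transcripts all encode proteins that were listed as particular to mitochondria. That origin was listed for 27 of the 64 members. MRPS18B nevertheless descends from the bacterial S18 family, as does MRPS18A, which was listed likewise. Of the 5 longest-lived there, 4 encode proteins with a bacterial homologue, MRPL52 being the other, beside 37 of the 64 members. In old female cells MRPS10 and MRPL32, which have a bacterial homologue, were among the 5 shortest-lived. In young male cells MRPL35, with a bacterial homologue, was among the 5 shortest-lived, and MRPS25, particular to mitochondria, among the 5 longest-lived.

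**Figure D1:**
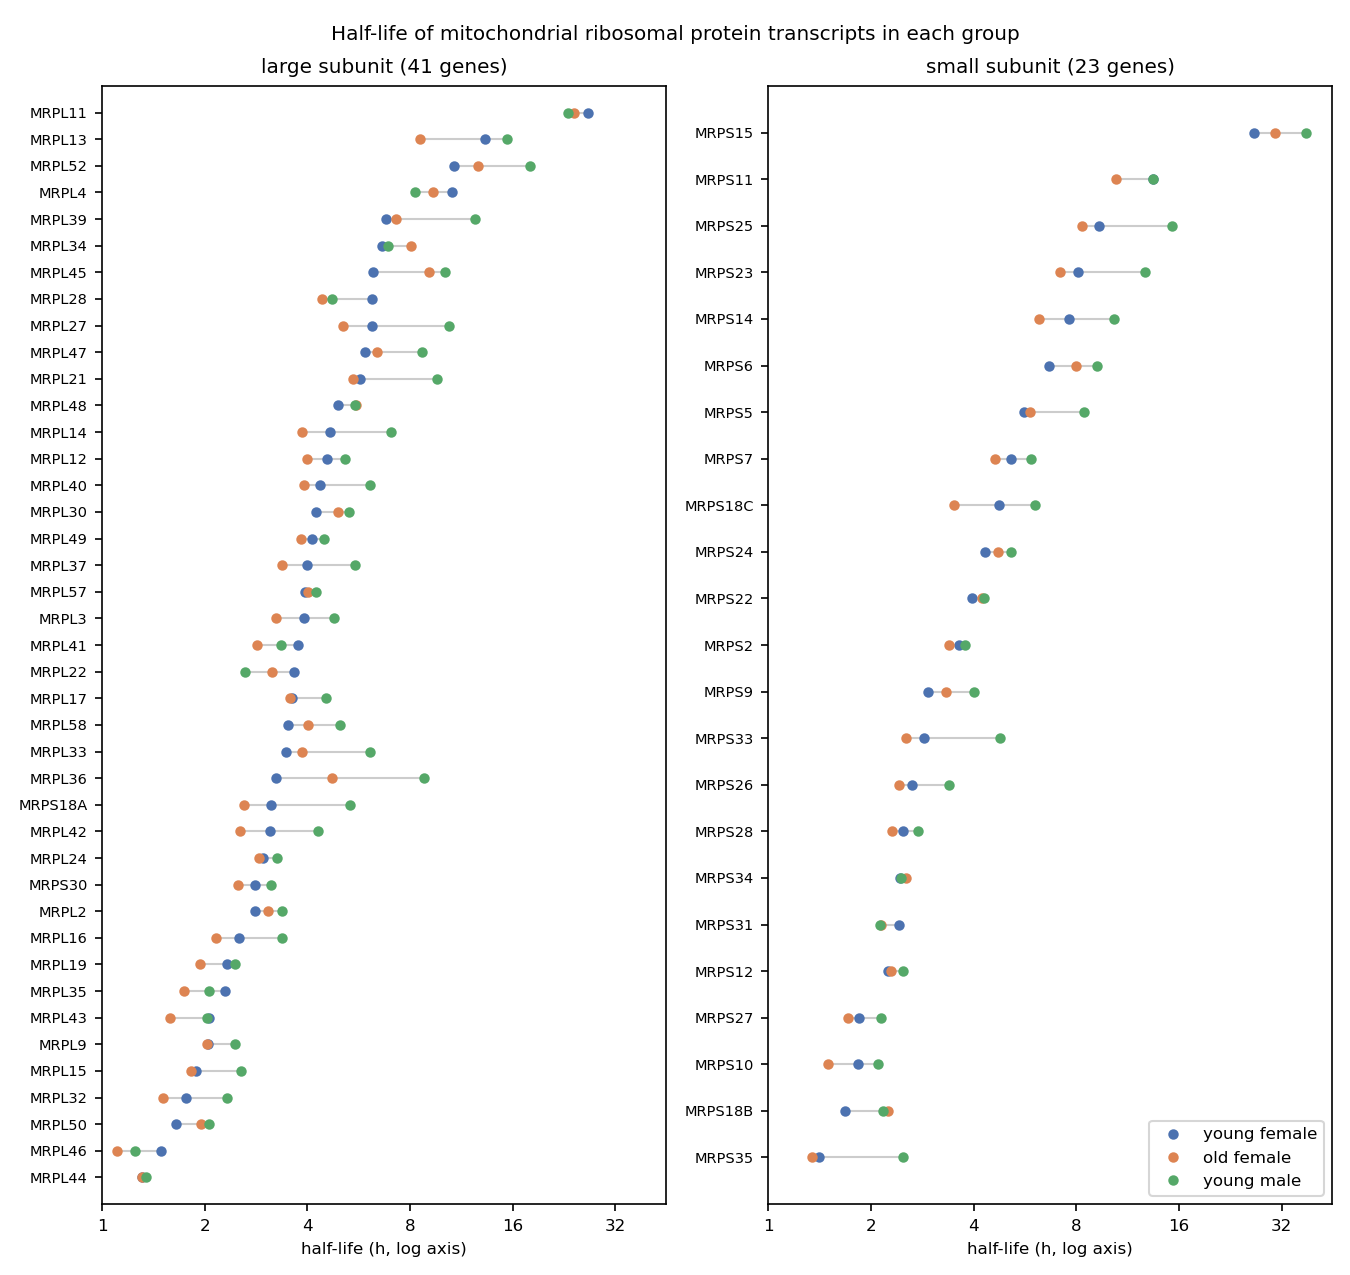
Half-life in hours (log axis) of each of the 41 large and 23 small subunit transcripts in young female (age table), old female and young male (sex table) cells, 1 authors' group value per point, joined by a grey line per gene. MRPL11 and MRPS15 lie above the rest in all 3 groups, and MRPL36 has one of the longest lines, from 3.24 to 8.80 h.

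The order of the members was much the same in cells of different groups. Between old female cells of the age table and young male cells of the sex table, which share no sample, Spearman's rho of the half-lives was 0.93 across the 64 members and 0.97 across the 10974 genes listed in both tables. This is a correlation across genes, whose values share transcript features and the estimation method, and genes are not independent replicates.

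Median half-lives by subunit and by origin are given side by side, and the widest gap was that by origin within the small subunit. In young female cells of the age table the median was 3.74 h for the large and 3.63 h for the small subunit; it was 3.83 and 3.38 h in old female cells, and 4.78 and 4.29 h in young male cells. Within the large subunit it was 3.77 h for the 24 members with a bacterial homologue and 3.74 h for the 17 particular to mitochondria. These medians were 3.86 and 3.38 h in old female cells, and 4.96 and 4.47 h in young male cells. Within the small subunit it was 4.75 h for 13 members with a bacterial homologue (1.83 to 26.6 h) and 2.54 h for 10 particular to mitochondria (1.41 to 9.34 h). The ranges overlapped. In old female cells these small subunit medians were 4.62 and 2.48 h, and in young male cells 5.88 and 2.94 h. With MRPS18A and MRPS18B counted among the bacterial relatives, a choice made after seeing the data, the medians within the large subunit were 3.65 and 3.84 h in young female cells, the other way round, and 3.85 and 3.60 h in old female and 5.14 and 4.39 h in young male cells. Those within the small subunit were 4.54 and 2.63 h in young female, 4.07 and 2.54 h in old female and 5.52 and 3.39 h in young male cells. No test of this difference was made.

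The paralogues MRPS18A, MRPS18B and MRPS18C, all relatives of bacterial S18, had unlike kinetics. MRPS18A sits in the large subunit, the other two in the small one. Half-lives in young female, old female and young male cells were 3.13, 2.60 and 5.35 h for MRPS18A. They were 1.68, 2.25 and 2.17 h for MRPS18B and 4.75, 3.51 and 6.07 h for MRPS18C. In old cells MRPS18B was longer-lived than in young female cells and the others shorter-lived. The second estimate for MRPS18A in young female cells, from the sex table, was 3.41 h. MRPL12, the stalk protein that contacts translation factors, had half-lives of 4.57, 3.98 and 5.14 h; its stalk partner MRPL10 was not analysed here.

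Transcripts of cytosolic ribosomal proteins and of the respiratory chain had far longer median half-lives than the members, and those of mitoribosome assembly factors a shorter one. In young female cells of the age table the median was 34.2 h for 68 cytosolic ribosomal proteins (2.79 to 69.3 h, the ceiling of the table) and 15.2 h for nuclear-encoded respiratory chain subunits (54 of 76 listed, 2.07 to 42.7 h). The first of these medians is above the 24 h that labelling for 4 h was taken to resolve. Only 1 of the 68 and 1 of the 54 were under 4 h, beside 37 of the 64 mitoribosomal transcripts and 53.3% of all genes. Translation factors of mitochondria (12 of 14 listed) had a median of 2.80 h and mitochondrial aminoacyl-tRNA synthetases (19 of 20) one of 3.48 h. The list of synthetases also holds the subunits of the amidotransferase that completes glutaminyl-tRNA, GATB, GATC and QRSL1. For mitoribosome assembly factors (22 of 25) the median was 2.13 h, below the members' lower quartile, and 18 of the 22 were under 4 h. Among mitoribosomal proteins without an MRP symbol 3 of 6 were listed: DAP3, a GTP-binding protein of the small subunit (2.55 h), PTCD3 (2.93 h) and GADD45GIP1 (6.89 h).

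**Figure D2:**
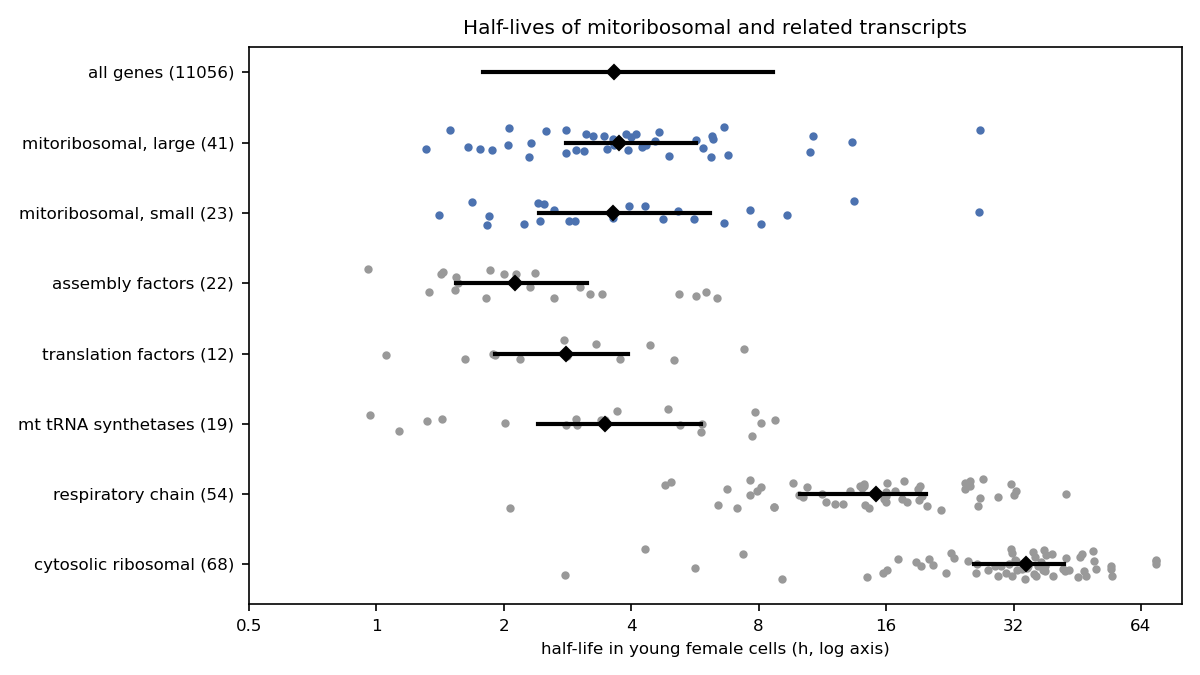
Half-life in young female cells of the age table (h, log axis) for the members of each list, 1 point per gene; diamonds are medians and black bars interquartile ranges, with the number of genes in parentheses, and all genes are drawn without points. Both mitoribosomal subunits centre near 3.7 h with the median of all genes, and the cytosolic ribosomal proteins centre at 34.2 h.

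The age comparison showed small differences in mitoribosomal kinetics. The half-life ratios, old over young female, had a median of −0.11 on the log2 scale, beside −0.08 for all genes. Half-lives were shorter in 42 of 64 members and longer in 22 (34.4%), where 36.5% of all genes were longer. Synthesis ratios centred on 0.08, as those of all genes did, and 39 of 64 were higher (60.2% of all genes); relative to the shift of all genes this median was −0.0049. Implied levels had a median of 0.01 with 36 of 64 higher, beside 50.7% of all genes. These shares lay near those of all genes.

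No member differed 2-fold or more between old and young female cells. For half-life the count was 0 of 64, where 3.53% of all genes differed so far (1.47% longer, 2.06% shorter). For synthesis rate it was 0, beside 7.52% of all genes (4.59% higher, 2.92% lower), and for implied level 0, beside 4.12% (2.13% higher, 1.99% lower). Without replicate values no tool could attach a p-value to these counts. Among genes of 1 to 24 h in both groups the shares of all genes were 0.889% for half-life, 4.73% for synthesis and 3.43% for implied level. At 0.5 on the log2 scale, 3 of 64 members passed for half-life (13.4% of all genes), 2 of them longer (4.47%) and 1 shorter (8.88%). For synthesis 3 passed (23.0%), 2 higher (14.8%) and 1 lower (8.18%). For implied level 2 passed (15.6%), 0 higher (8.19%) and 2 lower (7.37%). The SD of the log2 half-life ratio over the members was 0.24, beside 0.73 over all genes, which include half-lives outside 1 to 24 h.

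The furthest shorter half-life in old cells was that of MRPL13, at 13.3 h in young and 8.55 h in old female cells (log2 ratio −0.64). Its synthesis rate was 56.9 in young and 89.5 in old cells, so the implied level was nearly equal (0.02). MRPL28 (6.20 and 4.40 h) and MRPS18C (4.75 and 3.51 h) were next, at −0.49 and −0.44. Their synthesis ratios were 0.44 each. MRPS10 had a synthesis ratio of 0.64 and the second highest implied level ratio, 0.35.

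MRPL45, which anchors the ribosome to the inner membrane at the mouth of the exit tunnel, had the furthest longer half-life in old cells, 9.10 against 6.23 h (0.55). Its synthesis rate was 394 in young and 348 in old cells, and its implied level ratio, 0.37, was the highest of the members. The sex table listed its young female half-life as 6.62 h. MRPL36, a small zinc-binding protein of the large subunit, came next, with 4.71 against 3.24 h (0.54). Its synthesis rate had the lowest ratio of the members, −0.67 (95.1 in young and 59.6 in old cells), and its implied level ratio was −0.14. MRPS18B followed at 0.42. Synthesis was also lower for MRPL34 (−0.45) and MRPS6 (−0.44), whose half-lives were longer by 0.28 and 0.26.

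Implied levels in old cells were lowest for MRPL42 (−0.56), MRPL14 (−0.54) and MRPL27 (−0.46), in which half-life and synthesis were both lower. MRPL14 is the protein that the assembly factor MALSU1 binds, and MRPL27 lies near the peptidyl transferase centre. MRPL14 had a half-life of 4.65 h in young and 3.86 h in old cells, and a synthesis rate of 279 and 231. The highest ratio after MRPL45 and MRPS10 was that of MRPL49 (0.29). Opposite signs of the half-life and synthesis ratios were found in 47 of 64 members, and in 70.8% of all genes. Whether both parameters were estimated together is not given in the sources used here, but their values moved together. Between the 2 estimates of the young female cells, log2 half-life differed by up to 0.127 among the members. The log2 ratio of their implied levels stayed between 0.0666 and 0.0680, so a shorter half-life came with a higher synthesis rate. For MRPS18A these were 3.13 h and 288 in the age table, and 3.41 h and 251 in the sex table. Opposite signs are therefore not 2 separate observations.

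In young male cells mitoribosomal transcripts were longer-lived and had lower synthesis rates than in young female cells, as the bulk of genes did. The median log2 half-life ratio was 0.30, beside 0.27 for all genes, and it was 0.02 after centring on all genes. Half-lives were longer in 54 of 64 members (77.3% of all genes). After centring 33 of 64 were above 0. Synthesis rates had a median of −0.23, beside −0.28 for all genes, with 16 of 64 higher (28.9% of all genes); after centring the median turned to 0.05 and 35 of 64 were higher. Implied levels had a median of 0.08, beside 0.01, and 36 of 64 were higher (50.5% of all genes).

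Few members reached a 2-fold difference between male and female cells. For half-life it was 1 of 64, where 7.58% of all genes did, and it was longer (5.62% of all genes longer, 1.96% shorter). For synthesis rate it was 3 of 64 (12.2% of all genes), with 0 higher (3.78%) and 3 lower (8.37%). For implied level it was 2 of 64 (4.61%), with 0 higher (3.00%) and 2 lower (1.61%). Among genes of 1 to 24 h in both groups the shares of all genes were 3.87%, 9.33% and 3.27%. At 0.5 on the log2 scale 18 members passed for half-life (31.8% of all genes), 17 longer (27.4%) and 1 shorter (4.40%). For synthesis 19 passed (41.1%), 2 higher (8.96%) and 17 lower (32.1%), and for implied level 3 (25.0%), 1 higher (13.0%) and 2 lower (12.0%).

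MRPL36 was the member with the 2-fold difference in half-life. It was listed at 3.24 h in young females and 8.80 h in young males, 2.72-fold longer (log2 ratio 1.44). The old female value, 4.71 h, lay between them. After centring on all genes the male ratio was 1.17. Its synthesis rate was 90.9 in young females and 43.6 in young males, 2.09-fold lower (−1.06), which came to −0.78 after centring and no longer reached 2-fold. Its implied level was higher by 0.38. The young female half-life of MRPL36 was nearly identical in the 2 tables (log2 difference 0.0017). Both comparisons of MRPL36 use the same young female samples.

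MRPS35, a small subunit protein without a bacterial relative, and MRPL32, whose maturation by a protease of the inner membrane licenses ribosome assembly, stood apart in synthesis. MRPS35 was listed at 367 in young females and 100.1 in young males, 3.67-fold lower (−1.87), while old cells were at 440, beside 391 in young female cells of that table. Its half-life was 1.43 h in young female and 2.49 h in male cells (0.79), and the implied level was 2.12-fold lower (−1.08). The synthesis rate of MRPL32 was 236 in young females and 87.8 in young males, 2.69-fold lower (−1.43), whereas in the age table it was 248 in young and 270 in old female cells. With half-lives of 1.76 and 2.33 h its implied level was 2.03-fold lower in male cells (−1.02). Centring on all genes left both 2-fold calls in place (MRPS35 −1.60 and MRPL32 −1.15 for synthesis). Centring within deciles of half-life left both synthesis calls in place, but brought the implied levels to −0.77 and −0.79, under 2-fold. Of the other members, the lowest implied level was that of MRPS31, at −0.41.

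Other members differed less in male cells. Half-lives of MRPL39 (6.96 and 12.4 h in young female and male cells) and MRPL33 (3.46 and 6.09 h) were longer by 0.83 and 0.82. Half-lives were shorter in 10 of the 64, most for MRPL22 (3.76 and 2.62 h, −0.52), MRPL28 (−0.39) and MRPL4 (−0.36). MRPL22 and MRPL4 line the exit tunnel. The synthesis rate was highest relative to female cells for MRPL41 (0.60), MRPL4 (0.51) and MRPL11 (0.46). Implied levels were highest for MRPS12 of the decoding centre (0.60), whose half-life and synthesis were both higher, MRPL45 (0.46) and MRPS6 (0.45).

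**Figure D3:**
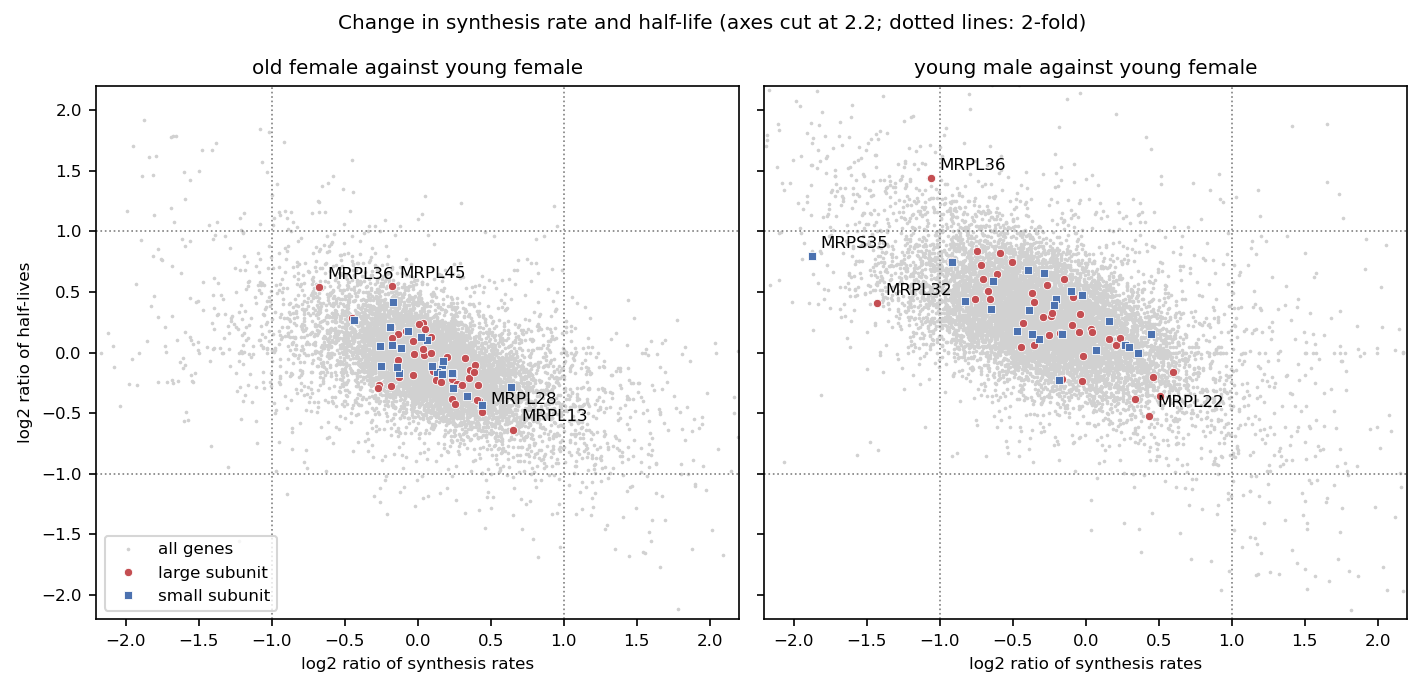
Log2 ratio of half-lives (vertical) against log2 ratio of synthesis rates (horizontal) for old against young female (left) and young male against young female cells (right); red circles are large and blue squares small subunit genes, grey points all genes within the axes, and dotted lines mark 2-fold. All 64 members lie inside the dotted lines on the left, and on the right MRPS35 and MRPL32 cross the line for synthesis and MRPL36 those for half-life and synthesis.

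The male to female ratios of half-life and implied level were higher for members whose transcripts were more stable in old female cells, a group that does not enter these ratios, while those of synthesis followed no such order. The 64 members were ordered by that half-life and divided into 3 parts. Median log2 ratios of half-life were 0.16 in the 21 shortest-lived (1.11 to 2.54 h), 0.23 in the middle 21 and 0.49 in the 22 longest-lived (4.62 to 30.7 h). Those of synthesis were −0.35, −0.09 and −0.23, and those of implied level −0.18, 0.09 and 0.25. Implied levels were higher in male cells for 5 of 21, 13 of 21 and 18 of 22. All genes within the same limits of half-life had implied level medians of −0.27, −0.04 and 0.25, with 22.6%, 45.1% and 78.2% higher. In the middle part the members' medians for synthesis and implied level, −0.09 and 0.09, were above those of all genes, −0.35 and −0.04. The other medians of the members were within 0.1 of those of all genes in the same range.

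For the age comparison the members were ordered by their stability in young male cells. Implied levels were higher in old cells for 13 of 21, 15 of 21 and 8 of 22 from the shortest-lived part to the longest-lived, beside 52.9%, 47.8% and 49.0% of all genes in the same ranges. Synthesis rates were higher for 16 of 21, 15 of 21 and 8 of 22 (64.4%, 59.5% and 56.3% of all genes). Half-lives were longer for 4 of 21, 8 of 21 and 10 of 22 (32.8%, 37.5% and 39.5% of all genes), with medians of −0.11, −0.10 and −0.10. The most stable part of the members had a median log2 synthesis ratio of −0.13, beside 0.05.

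**Figure D4:**
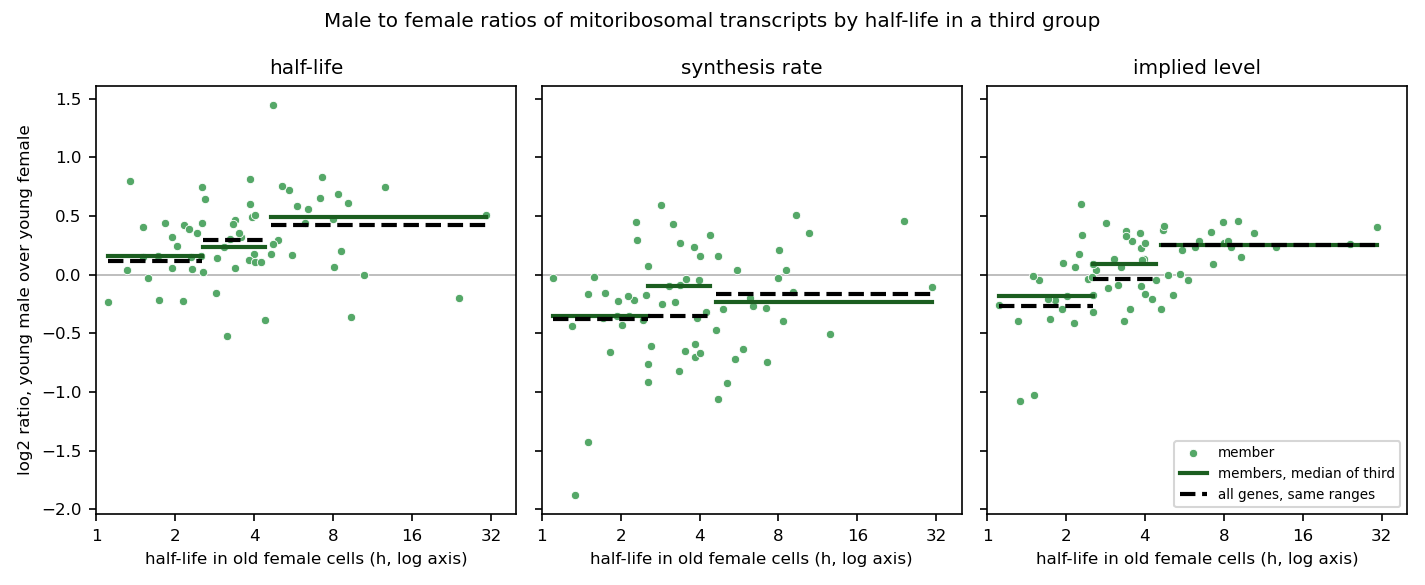
Young male to young female log2 ratio, with half-life, synthesis and implied level in separate panels, against the half-life in old female cells (h, log axis), 1 point per member; solid lines are the medians of the 3 parts of the members and dashed lines those of all genes in the same half-life limits, the last of which reaches 69.3 h beyond the axis. The implied level medians climb from −0.18 to 0.25 for the members and from −0.27 to 0.25 for all genes.

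Partner genes of mitochondrial translation also had longer median half-lives and lower median synthesis rates in male cells, by amounts that varied between lists. Median log2 ratios of half-life and synthesis were 0.32 and −0.40 for the synthetases, 0.22 and −0.48 for assembly factors, and 0.46 and −0.55 for transcription and RNA handling factors. Their implied levels had medians of −0.03, −0.15 and −0.19, beside 0.08 for the members and 0.01 for all genes. In old female cells the median half-lives of these 3 lists were 3.45, 2.04 and 1.68 h. All genes up to 2.54 h there had an implied level median of −0.27, and those from 2.54 to 4.40 h one of −0.04. The 2-fold counts below stand beside 5.62% of all genes longer-lived and 1.96% shorter-lived, and 3.78% with higher and 8.37% with lower synthesis. Mitochondrial translation factors had median log2 ratios of 0.34 for half-life and −0.36 for synthesis in male cells, with 0 of 12 past 2-fold in either direction for each. TUFM, the elongation factor that delivers tRNAs, had ratios of 0.51 and −0.35. Of the 19 genes listed with the synthetases, 1 was past 2-fold upward in half-life (AARS2, 1.13) and 1 downward (MARS2, −1.84). For synthesis 1 was past it upward (MARS2, 1.86) and 1 downward (QRSL1, −1.07). QRSL1 is one of the amidotransferase subunits of this list, not a synthetase. Of 22 assembly factors, 2 were longer-lived (MRM2 and RPUSD4) and 1 shorter-lived (DDX28, −4.02); synthesis was higher for 1 (DDX28) and lower for 2 (GTPBP10 and MTG1). Factors of mitochondrial transcription and RNA handling had 2 of 18 past 2-fold upward and 3 downward in half-life; the latter, FASTKD3, TWNK and TEFM, were listed at 0.05, 0.04 and 0.27 h in male cells. TWNK was kept in this list although it encodes the helicase of mitochondrial DNA replication. The same 3 had higher synthesis, and 3 others, FASTKD1, TRMT10C and SUPV3L1, had lower synthesis. Male half-lives of DDX28 and MARS2, the lowest of their lists, were 0.07 and 0.26 h. Half-lives this short, and those of FASTKD3, TWNK and TEFM, are below what 4 h of labelling was taken to resolve. No nuclear regulator of 8 listed was past 2-fold in half-life, and 1 of 8 was for synthesis, MYC (−1.21); NRF1 stood at −0.59 and GABPA at −0.53. Of the mitoribosomal proteins without an MRP symbol, DAP3 and PTCD3 of the small subunit had synthesis ratios of −0.95 and −0.91, and GADD45GIP1 of the large subunit one of 0.31.

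In old cells translation factors (12) and nuclear regulators (8) had 0 genes past 2-fold in half-life or synthesis. The synthetases, the assembly factors and the transcription and RNA handling factors had 1 each, shorter-lived and with higher synthesis: MARS2, DDX28 and FASTKD3, with old half-lives of 0.02, 0.06 and 0.01 h. Half-lives this short are below what 4 h of labelling was taken to resolve, and the higher synthesis of each gene was listed with them. Of all genes 2.06% were shorter-lived and 4.59% had higher synthesis by 2-fold in old cells. Cytosolic ribosomal proteins had median log2 ratios of half-life of 0.38 and of implied level of 0.30 in old cells, with 57 and 63 of 68 above 0. In the 64 mitoribosomal genes these were −0.11 and 0.01, with 22 and 36 above 0. The cytosolic list had lower quartiles of half-life of 25.8 h in young and 33.3 h in old female cells. Most of its half-lives thus lay above the 24 h that labelling for 4 h was taken to resolve. Of all genes 36.5% were above 0 for half-life and 50.7% for implied level, and the mitoribosomal shares lay near these. In male cells the implied levels had medians of 0.41 for cytosolic ribosomal proteins, 0.28 for respiratory chain subunits and 0.08 for mitoribosomal genes. All genes had a median of 0.01, and those with half-lives of 4.40 to 69.3 h in old female cells one of 0.25. The median half-lives of the first 2 lists in old female cells, 42.6 and 14.9 h, lay in that range. The differences between lists were not tested.

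The young female cells were estimated in both tables, which shows how far a half-life moved with the estimation alone. Of the 64 members, 61 differed by less than 5% between tables, and the median absolute log2 difference was 0.0031. The 3 exceptions, MRPS18A, MRPS28 and MRPL45, were all lower in the age table, MRPS18A by the most (log2 difference −0.13). In the age comparison 44 of 64 members had an absolute log2 half-life ratio above that largest difference (64.7% of all genes), and in the sex comparison 53 of 64 (79.9%). The repeat rests on the same young female samples and holds none of the spread between samples. MRPL15, whose RefSeq model is on an unplaced sequence, was listed at a synthesis rate of 8742; whether reads from copies of it were counted was not tested. In the RefSeq models 21 members overlap another listed protein-coding gene. The libraries were strand-specific, but use of strand in counting is not stated in the sources used here. MRPL36, MRPS35 and MRPL32 do not overlap one.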

How the data were processed

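Chondrocyte RNA was measured in 13 samples of 3 groups. The deposited values are the authors' group estimates of synthesis rate and half-life, 1 per gene and group, per the file headers; there were 0 columns of values per sample. The submitters' processing notes name cutadapt 4.5, STAR 2.5.3 and the build EquCab3.0. The kinetic model, the gene filter and the pooling of replicates are not given in the sources used here. The "Young" columns of the age table were read as young female, because the labels assign those samples to it. Hours were assumed, as the unit is not stated. The values stop at 69.3, which is a decay rate of 0.01 per unit of time and does not fix that unit.

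Log2 ratios were computed within a table over all its genes, with no pseudocount and no filter, in Python 3.11.15 with pandas 2.3.3 and numpy 2.4.6. A 2-fold difference means an absolute log2 ratio of at least 1. The ratio code was tested on simulated data. No sequence is shown, as none was at hand for these genes.

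Named members were, per comparison and parameter, the 3 highest and 3 lowest ratios, the 5 longest and 5 shortest half-lives, all 2-fold differences, the MRPS18 paralogues and the stalk. Members and lists were chosen with earlier results of these data known. Alternatives were half-lives of 1 to 24 h, centring on all genes or within 10 half-life deciles, genes in both tables, the upper 75% by synthesis, the other table's young female values, and a threshold of 0.5.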

Additional observations from a re-analysis of the deposited data

How the results depend on the processing

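Over 22 results, 126 alternative values were computed; 103 stayed close (counts within 1.5 times, medians within 0.05 log2 units, half-lives likewise on the log2 scale), 19 moved and 4 turned in sign. Centring on all genes, and centring within half-life deciles, brought the median log2 ratios to −0.026 and −0.032 for half-life and to −0.0049 and −0.0074 for synthesis in old cells, and to 0.023 and 0.0084 for half-life and 0.047 and 0.058 for synthesis in male cells. The same 2 settings gave 33 and 34 members above 0 for male half-life and 35 and 38 for male synthesis. By construction centring removes the shift of all genes. At a threshold of 0.5 the members past it in half-life, synthesis and implied level numbered 3, 3 and 2 in old cells, and in male cells 18 and 19 for half-life and synthesis. Among the upper 75% of genes by synthesis, 0 members passed for male half-life, as MRPL36 is not among them, and the median half-lives were 3.28 h (old female), 3.56 h (young female, age table), 3.56 h (young female, sex table) and 4.39 h (young male). Within half-life deciles 0 members were 2-fold apart in male implied level. For the other table's young female values a constant offset between tables was taken out first, a step added after seeing the data. Of 34 alternative values of the 6 calls of single members, 30 stayed past 2-fold. No paired analysis was possible because the tables hold no values per sample, and leaving out single samples was not run for that reason. Depth, and with it the precision of each estimate, is unknown.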

Other observations

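Some members lie next to each other or to other genes in the RefSeq models, only some of which are genes of mitochondria or translation. The pairs below were chosen after their values were seen, from 44 pairs of a member and a listed protein-coding gene that overlapped it or lay within 1000 bases, involving 35 of the 62 members with a placed model. MRPS11 and MRPL46 were the 1 pair of 2 members, with models that overlap at their ends. Their half-lives in young female cells of the age table were 13.4 and 1.49 h, in old female cells 10.5 and 1.11 h and in young male cells 13.4 and 1.25 h. Their log2 half-life ratios were −0.36 and −0.43 in old cells and −0.00040 and −0.23 in male cells, and their male synthesis ratios were 0.35 and −0.03. MRPS12 and SARS2, the mitochondrial seryl-tRNA synthetase, had log2 synthesis ratios of 0.45 and 0.40 in male cells, with half-lives of 2.24 and 3.40 h in young female cells of the age table. MRPS34 and EME2 had log2 half-life ratios of 0.060 and 0.057 in old cells and of 0.02 and −0.13 in male cells. MRPL22 and GEMIN5 had male synthesis ratios of 0.43 and −1.16.

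MRPL36, the member with the longest relative half-life in male cells, lies beside NDUFS6, a subunit of respiratory complex I. NDUFS6 had a half-life of 31.6 h in young female cells of the age table, beside 3.24 h for MRPL36. Its log2 half-life ratios were 0.61 in male and −0.18 in old cells, where those of MRPL36 were 1.44 and 0.54. MRPL32 lies beside PSMA2, a proteasome subunit with a half-life of 12.4 h and a male synthesis ratio of −0.42, beside 1.76 h and −1.43 for MRPL32. MRPL47 overlaps NDUFB5, another complex I subunit, and their half-lives were 5.91 and 42.7 h. MRPL49 lies beside FAU, which encodes a cytosolic ribosomal protein, and theirs were 4.11 and 27.9 h.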
